A study of Caenorhabditis elegans with 33 samples.

Results

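Lysine 20 of histone H4 (H4K20) carries 1, 2 or 3 methyl groups, and 3 genes of *Caenorhabditis elegans* that set this state are described here: *dpy-21* (WBGene00001080), *set-1* (WBGene00004781) and *set-4* (WBGene00016313). They were taken by name from a table of 21975 genes measured by RNA-seq. All 3 genes were present and all 3 passed the limit on low values, a mean of at least 1 FPKM, which left 13309 genes for testing. FPKM are fragments per kilobase of exon, scaled for the size of each library. None of the 3 passed the test, an adjusted p under 0.05, in any of the 16 comparisons between conditions, so the results below are levels, intervals and library values rather than called changes.

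RNA came from whole hermaphrodite larvae at the L3 stage, pooled and grown for 24 hours from the L1 stage, in 11 conditions with 3 replicates each. Auxin, where given, was present at 4 mM throughout. Larvae grown on auxin were of the strains TIR-1; dpy-27::AID; cec-4, TIR-1; dpy-27::AID, dpy-27::AID and cec-4, and each of these strains was also grown without auxin. Larvae of the strains dpy-21; cec-4, dpy-21 and WT (N2 Bristol) were grown without auxin only. The dpy-21 allele is e428, described by the study as null, and the cec-4 allele is ok3124. CEC-4 anchors chromatin marked by H3K9 methylation at the nuclear envelope. In dpy-27::AID strains the endogenous DPY-27, a condensin subunit, carries a degron, and in strains labelled TIR-1 the plant F-box protein TIR1 is expressed from the ubiquitous *eft-3* promoter, so that auxin directs DPY-27 to degradation. The degron strain without TIR1 and the cec-4 strain lack that combination, and served as controls for auxin itself. WT larvae on auxin were not analysed here. All conditions share the N2 background and the bacterial food, and each genotype is represented by 1 strain.

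SET-1, the worm relative of PR-Set7, adds the first methyl group to H4K20, and SET-4, the relative of SUV4-20, turns that mark into the di- and trimethylated forms. DPY-21 is a JmjC-domain demethylase that works in the other direction, from the dimethylated to the monomethylated form. It is also a subunit of the dosage compensation complex, which binds both X chromosomes of hermaphrodites and lowers their transcription, and its activity enriches H4K20me1 on the X. The mark itself was not measured in these libraries, which report only how much mRNA of each enzyme the larvae contained.

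In WBcel235, *dpy-21* lies on the minus strand of chromosome V from 17936282 to 17949193, a span of 12912 bp with 11 exon blocks that add up to 5666 bp. The methyltransferase genes are much shorter. *set-1* lies on the minus strand of chromosome III from 6450792 to 6452378, with 1322 bp of exons in 3 annotated transcripts, and *set-4* lies on the minus strand of chromosome II from 6329838 to 6331341, with 1314 bp of exons in 1 transcript. No member is X-linked. The antisense RNA gene *anr-1* overlaps 443 bp of the *set-1* exons on the opposite strand and has no row in the table. The library kit keeps strand, but whether the counting used it is not given in the sources used here, so whether *anr-1* reads were kept out of the *set-1* values is not known.

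Libraries differed in the sum of their FPKM values, which was 1.41 to 1.67 M in 31 libraries, against 2.55 M in WT replicate 1 and 2.02 M in WT replicate 2. These libraries stand apart from the rest, and differences from WT moved by up to 0.59 on the log2 scale when replicate 3 was the only WT library, an alternative whose values are given beside the results it moves most. No pair of libraries held identical values. Scaling every library to an equal FPKM sum moved the median of all genes in comparisons with WT (0.39 on the log2 scale for dpy-21 against WT, where the values as deposited gave 0.088), and the direction of small differences from WT depended on it.

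The 3 mRNAs were of similar abundance per length. The mean over all 33 libraries was 25.4 ± 5.08 FPKM for *dpy-21*, 31.4 ± 6.95 FPKM for *set-1* and 25.7 ± 4.12 FPKM for *set-4* (SD, n = 33 libraries each). These means were above those of 62.9%, 68.1% and 63.2% of the genes tested, in the same order. No library was listed at 0 for any of them. Among all genes with a median of at least 20 FPKM, 188 of 5592 were listed at 0 in at least 1 library. From the lowest to the highest library, *dpy-21* spanned 15.8 to 34.9 FPKM, *set-1* 18.4 to 46.0 FPKM and *set-4* 19.7 to 38.8 FPKM. The highest condition mean was 1.62 times the lowest for *dpy-21*, 1.72 times for *set-1* and 1.46 times for *set-4*.

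**Figure D1:**
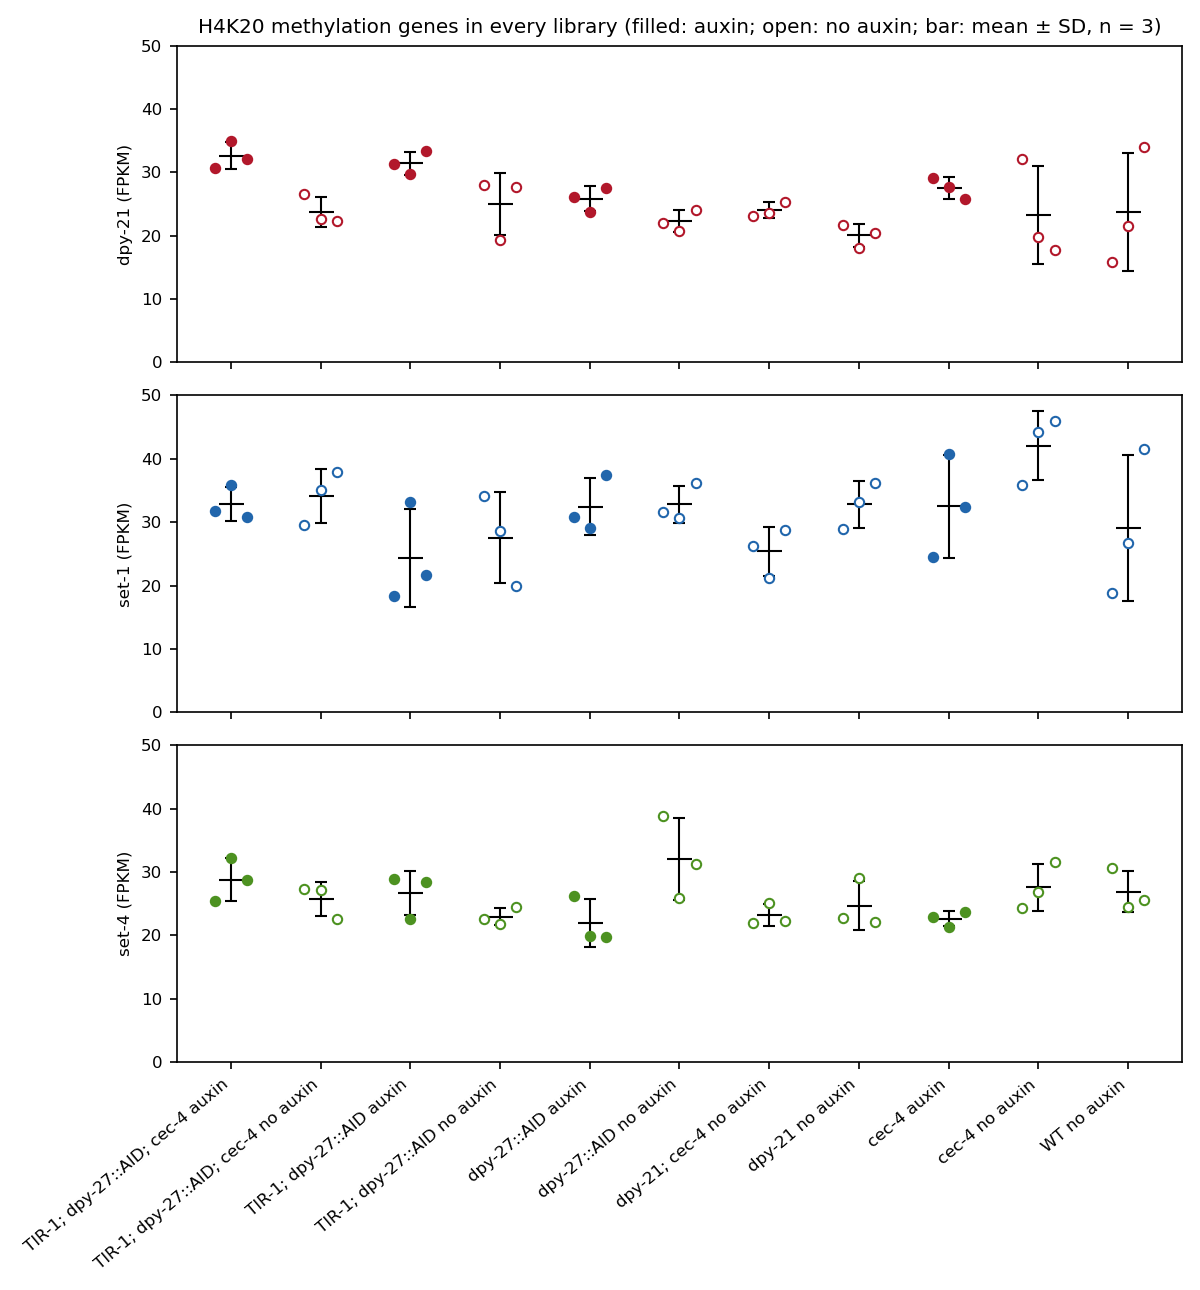
FPKM of *dpy-21*, *set-1* and *set-4* (y axes) in each of the 33 libraries by condition (x axis), with filled circles for auxin, open circles for no auxin and black bars for the mean ± SD of 3 libraries. The *dpy-21* libraries of both TIR-1 strains on auxin lie between 29.7 and 34.9 FPKM, and the WT libraries spread from 15.8 to 34.0 FPKM.

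Spread within a condition was below that of most genes on average, although the WT and cec-4 libraries without auxin were far apart for *dpy-21*, and those of WT for *set-1*. The residual SD among libraries of a condition was 0.25 for *dpy-21*, 0.30 for *set-1* and 0.18 for *set-4* on the log2 scale, where the median gene had 0.60. A smaller SD was found in 11.8% of genes tested for *dpy-21*, in 20.6% for *set-1* and in only 2.22% for *set-4*. A moderated F test over the 11 conditions (limma) gave adjusted p = 0.288 for *dpy-21*, 0.356 for *set-1* and 0.335 for *set-4*, against 10.2% of all genes tested that passed it. The unadjusted p was 0.10, 0.15 and 0.13.

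*dpy-21*, the demethylase, had its 4 highest condition means in the 4 auxin conditions. Its level was 32.6 ± 2.14 FPKM in TIR-1; dpy-27::AID; cec-4 larvae on auxin, 31.4 ± 1.83 FPKM in TIR-1; dpy-27::AID larvae on auxin, 27.5 ± 1.71 FPKM in cec-4 larvae on auxin and 25.8 ± 1.98 FPKM in dpy-27::AID larvae on auxin (SD, n = 3 each). The conditions without auxin followed, with 24.9 ± 4.90 FPKM in TIR-1; dpy-27::AID, 24.0 ± 1.19 FPKM in dpy-21; cec-4, 23.8 ± 2.36 FPKM in TIR-1; dpy-27::AID; cec-4, 23.7 ± 9.30 FPKM in WT, 23.3 ± 7.75 FPKM in cec-4, 22.3 ± 1.70 FPKM in dpy-27::AID and 20.1 ± 1.80 FPKM in dpy-21 larvae (SD, n = 3 each). Neighbours in this order overlapped in their libraries, except TIR-1; dpy-27::AID on auxin and cec-4 on auxin. For that pair, and for the highest against the lowest condition, the 2-sided exact permutation test gave p = 0.10, the smallest that 3 libraries against 3 allow, and an adjusted p of 1.0 over the 33 pairs tested among the 3 genes. The pairs were picked by the order of these same values and could not pass, so the test lends the order no support.

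The allele e428 did not remove the *dpy-21* transcript. The dpy-21 larvae had 21.6, 18.1 and 20.4 FPKM of *dpy-21*, against 15.8, 21.5 and 34.0 FPKM in WT. The mutant libraries lie inside the range of the WT libraries. The difference was -0.17 on the log2(FPKM + 0.1) scale (95% interval -0.63 to 0.28, adjusted p = 0.715), in a comparison where 3.66% of all genes tested were called. It ran from -0.43 to 0.12 on leaving out a library (lowest without WT replicate 1, highest without WT replicate 3), was -0.76 with WT replicate 3 alone (adjusted p = 0.135) and turned to 0.14 with equal FPKM sums. The dpy-21; cec-4 larvae had 23.1, 23.6 and 25.4 FPKM, against 32.1, 19.9 and 17.8 FPKM in cec-4 larvae, a difference of 0.10 (interval -0.36 to 0.55, adjusted p = 0.919, with 1.56% of genes called), which was -0.07 without cec-4 replicate 3. An mRNA level of this kind checks neither the mutant label nor the protein.

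Between dpy-21; cec-4 and dpy-21 larvae the *dpy-21* libraries did not overlap, but the difference did not pass the test. The dpy-21; cec-4 libraries, with 23.1, 23.6 and 25.4 FPKM, were all above the dpy-21 libraries, with 21.6, 18.1 and 20.4 FPKM. The difference was 0.26 (interval -0.19 to 0.72, adjusted p = 1.0). Libraries did not overlap for 13.1% of all genes tested in this comparison, and limma called 0 of 13309 genes (0%), with 519 at an unadjusted p under 0.05. Against WT, *dpy-21* differed by 0.09 in dpy-21; cec-4 larvae (interval -0.37 to 0.54, adjusted p = 0.866, with 4.3% of genes called) and by -0.0071 in cec-4 larvae (interval -0.46 to 0.45, adjusted p = 1.0, with 0.195% called). With WT replicate 3 alone these values were -0.50 and -0.59.

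DPY-27 depletion was accompanied by higher *dpy-21* values that did not pass the test. In TIR-1; dpy-27::AID larvae, *dpy-21* had 31.3, 29.7 and 33.3 FPKM on auxin, against 27.9, 19.3 and 27.6 FPKM without auxin. Every library on auxin was above every library without it, which held for 18.2% of all genes in one direction or the other. The difference was 0.35 (interval -0.10 to 0.81, adjusted p = 0.592), and 0.413% of genes were called. With the cec-4 mutation added (TIR-1; dpy-27::AID; cec-4), *dpy-21* had 30.7, 34.9 and 32.1 FPKM on auxin, against 26.5, 22.6 and 22.3 FPKM without auxin. These libraries did not overlap either, as for 30.7% of all genes. The difference, 0.45, was the largest of the 16 for this gene, and its interval of -0.00058 to 0.91 reached just past 0 (adjusted p = 0.237, with 6.4% of genes called). The interaction test found no difference between the auxin responses with and without the cec-4 mutation that passed the threshold (0.10, interval -0.54 to 0.75, adjusted p = 0.923, with 1.44% of genes called).

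The control strains pointed the same way with smaller values. In dpy-27::AID larvae, which lack TIR1, *dpy-21* had 26.2, 23.7 and 27.6 FPKM on auxin, against 22.0, 20.7 and 24.1 FPKM without auxin, a difference of 0.21 (interval -0.24 to 0.67, adjusted p = 1.0). In that comparison limma called 0 of 13309 genes (0%), with 673 at an unadjusted p under 0.05. In cec-4 larvae, which lack both TIR1 and the degron, *dpy-21* had 29.1, 27.6 and 25.7 FPKM on auxin, against 32.1, 19.9 and 17.8 FPKM without auxin, a difference of 0.29 (interval -0.17 to 0.74, adjusted p = 1.0, with 0.00751% of genes called). Libraries overlapped in both control strains, and in cec-4 larvae the highest single library was one without auxin.

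Averaged over the 4 strains, a contrast added after these condition means had been seen, *dpy-21* was 0.33 higher on auxin (interval 0.10 to 0.55, 1.25-fold, unadjusted p = 0.0068). The adjusted p was 0.163, with 0.984% of genes called in this contrast, and it lay between 0.068 and 0.438 over the alternatives. The 12 libraries on auxin ranged from 23.7 to 34.9 FPKM with a median of 29.4 FPKM, against 17.8 to 32.1 FPKM with a median of 22.4 FPKM in the 12 libraries without auxin. Values for both methyltransferase genes were below 0 and did not pass. The contrast gave -0.16 for *set-1* (interval -0.42 to 0.10, adjusted p = 0.671) and -0.11 for *set-4* (interval -0.29 to 0.07, adjusted p = 0.682).

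On auxin, the depleted strains were also set against their controls. *dpy-21* was higher in TIR-1; dpy-27::AID larvae on auxin, with 31.3, 29.7 and 33.3 FPKM, against 26.2, 23.7 and 27.6 FPKM in dpy-27::AID larvae on auxin. The libraries did not overlap, as for 18% of all genes, and the difference was 0.29 (interval -0.17 to 0.74, adjusted p = 0.685, with 1.31% of genes called). It had 30.7, 34.9 and 32.1 FPKM in TIR-1; dpy-27::AID; cec-4 larvae on auxin, against 29.1, 27.6 and 25.7 FPKM in cec-4 larvae on auxin, again without overlap, as for 26% of all genes (0.24, interval -0.21 to 0.70, adjusted p = 0.636, with 4.76% called). Between the TIR-1 strains on auxin, with and without the cec-4 mutation, the *dpy-21* difference was 0.05 (interval -0.40 to 0.51, adjusted p = 0.948, with 2.28% called).

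*set-1*, the monomethyltransferase, was most abundant in cec-4 larvae without auxin. Its mean there was 42.1 ± 5.42 FPKM, and the next were 34.1 ± 4.29 FPKM in TIR-1; dpy-27::AID; cec-4 larvae without auxin and 32.8 ± 2.68 FPKM in the same strain on auxin (SD, n = 3 each). The dpy-27::AID larvae without auxin, dpy-21 larvae, cec-4 larvae on auxin and dpy-27::AID larvae on auxin lay between 32.5 and 32.8 FPKM on average. WT had 29.0 ± 11.5 FPKM, TIR-1; dpy-27::AID larvae without auxin 27.5 ± 7.17 FPKM, dpy-21; cec-4 larvae 25.4 ± 3.86 FPKM and TIR-1; dpy-27::AID larvae on auxin 24.4 ± 7.73 FPKM (SD, n = 3 each). All neighbours in this order overlapped in their libraries.

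The *set-1* value with the smallest adjusted p of any member was the one for the dpy-21 mutation in cec-4 larvae. The dpy-21; cec-4 larvae had 26.3, 21.2 and 28.8 FPKM of *set-1*, against 35.9, 44.3 and 46.0 FPKM in cec-4 larvae. Every double mutant library was below every cec-4 library, which was the case, in one direction or the other, for 19.9% of all genes in this comparison. The difference was -0.73 (0.604-fold, interval -1.25 to -0.20, unadjusted p = 0.0083, adjusted p = 0.158), and the adjusted p ranged from 0.133 to 0.405 over the alternatives. The dpy-21; cec-4 libraries were also all below the dpy-21 libraries, which had 28.9, 33.2 and 36.2 FPKM, a difference of -0.37 (interval -0.89 to 0.15, adjusted p = 1.0). The highest double mutant library, 28.8 FPKM, and the lowest dpy-21 library, 28.9 FPKM, nearly met, and 13.1% of all genes did not overlap in this comparison, where 0% were called.

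With each single mutation, the *set-1* difference from all 3 WT libraries was above 0 but did not pass. The cec-4 larvae had 35.9, 44.3 and 46.0 FPKM, against 18.9, 26.7 and 41.6 FPKM in WT, a difference of 0.60 (interval 0.08 to 1.12, unadjusted p = 0.026, adjusted p = 0.237) with overlapping libraries. Without WT replicate 3 this difference was 0.89 and passed the test (adjusted p = 0.027), and the lowest value on leaving out a library was 0.33. With WT replicate 3 alone, whose *set-1* level was 41.6 FPKM, the difference was 0.0089 (adjusted p = 1.0). The dpy-21 larvae had 28.9, 33.2 and 36.2 FPKM of *set-1*, a difference from WT of 0.24 (interval -0.28 to 0.77, adjusted p = 0.641). That value was -0.03 without WT replicate 1 and -0.35 with WT replicate 3 alone. In the interaction of both mutations, *set-1* was 0.97 lower on the log2 scale in dpy-21; cec-4 larvae than the sum of the single differences gives (-0.97, interval -1.71 to -0.23, unadjusted p = 0.012, adjusted p = 0.301, with 0.0526% of genes called). Without WT replicate 3 the interaction was -1.27 and passed the test (adjusted p = 0.042), and with WT replicate 3 alone it was -0.38 (adjusted p = 0.781), so both the size and the call depended on the WT libraries used. The interaction was 0.27 for *dpy-21* (adjusted p = 0.774) and -0.12 for *set-4* (adjusted p = 0.891).

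No *set-1* difference with DPY-27 depletion passed the test. Larvae of TIR-1; dpy-27::AID had 18.4, 33.1 and 21.6 FPKM on auxin, against 34.1, 28.6 and 19.9 FPKM without auxin, and the libraries overlapped widely. The difference was -0.18 (interval -0.71 to 0.34, adjusted p = 0.853). In TIR-1; dpy-27::AID; cec-4 larvae it had 31.7, 35.9 and 30.9 FPKM on auxin, against 29.5, 35.0 and 37.9 FPKM without auxin, a difference of -0.05 (interval -0.57 to 0.47, adjusted p = 0.947). The control strains gave -0.02 in dpy-27::AID larvae (30.8, 29.0 and 37.5 FPKM on auxin, against 31.6, 30.6 and 36.1 FPKM without) and -0.39 in cec-4 larvae (24.4, 40.7 and 32.4 FPKM on auxin, against 35.9, 44.3 and 46.0 FPKM without). Both had an adjusted p of 1.0. The intervals of these 4 differences reached as low as -0.92, in cec-4 larvae, and do not show that the level was the same.

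*set-4*, which makes the di- and trimethylated forms, had the narrowest range and the smallest spread. Its condition means were 32.0 ± 6.47 FPKM in dpy-27::AID larvae without auxin, 28.8 ± 3.42 FPKM in TIR-1; dpy-27::AID; cec-4 larvae on auxin, 27.6 ± 3.69 FPKM in cec-4 larvae without auxin and 26.9 ± 3.23 FPKM in WT (SD, n = 3 each). The other means lay between 22.0 and 26.7 FPKM. The lowest was that of dpy-27::AID larvae on auxin, 22.0 ± 3.74 FPKM, and all neighbours in the order overlapped.

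The highest and the lowest *set-4* mean thus came from 1 strain with and without auxin. The dpy-27::AID larvae had 26.3, 19.9 and 19.7 FPKM on auxin, against 38.8, 26.0 and 31.2 FPKM without auxin. The groups overlapped through replicate 1 on auxin and replicate 2 without auxin. The difference was -0.53 (0.690-fold, interval -0.90 to -0.17, unadjusted p = 0.0057, adjusted p = 0.925). In cec-4 larvae, the other strain without TIR1, *set-4* had 22.9, 21.4 and 23.7 FPKM on auxin, against 24.3, 26.9 and 31.6 FPKM without auxin. All libraries on auxin were lower, as libraries did not overlap for 9.54% of all genes, and the difference was -0.28 (interval -0.64 to 0.09, adjusted p = 1.0). With TIR1 the sign was the opposite. *set-4* differed by 0.21 in TIR-1; dpy-27::AID larvae (28.8, 22.7 and 28.5 FPKM on auxin, against 22.6, 21.8 and 24.4 FPKM without, adjusted p = 0.722) and by 0.16 in TIR-1; dpy-27::AID; cec-4 larvae (25.4, 32.3 and 28.8 FPKM on auxin, against 27.3, 27.2 and 22.6 FPKM without, adjusted p = 0.661), with overlapping libraries in both. The difference between these strains in their *set-4* response was not tested.

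Between strains on auxin, *set-4* had 25.4, 32.3 and 28.8 FPKM in TIR-1; dpy-27::AID; cec-4 larvae, against 22.9, 21.4 and 23.7 FPKM in cec-4 larvae, without overlap, as for 26% of all genes (0.34, interval -0.02 to 0.70, adjusted p = 0.318, with 4.76% called). Without auxin, *set-4* had 22.6, 21.8 and 24.4 FPKM in TIR-1; dpy-27::AID larvae, all below the WT libraries with 30.6, 24.6 and 25.5 FPKM, as libraries did not overlap for 11.5% of all genes. That difference was -0.22 (interval -0.59 to 0.14, adjusted p = 0.609, with 0.293% of genes called) and turned to 0.15 with equal FPKM sums. In the dpy-21 mutants, the *set-4* difference was -0.13 in dpy-21 larvae against WT (interval -0.49 to 0.24) and -0.24 in dpy-21; cec-4 larvae against cec-4 larvae (interval -0.61 to 0.12).

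No difference with the degron or TIR1 without auxin passed for any of the 3 genes. In dpy-27::AID larvae against WT, the differences were -0.02 for *dpy-21*, 0.25 for *set-1* and 0.24 for *set-4*, where 0.586% of all genes were called. Over the alternatives these values ran from -0.61 to 0.35, from -0.34 to 0.62 and from 0.09 to 0.61, with the lowest *dpy-21* and *set-1* values from WT replicate 3 alone. In TIR-1; dpy-27::AID; cec-4 larvae without auxin they were 0.07, 0.30 and -0.06 against WT (1.73% called, and -0.52 to 0.41, -0.29 to 0.64 and -0.13 to 0.28 over the alternatives), and -0.05, 0.34 and 0.16 against TIR-1; dpy-27::AID larvae without auxin (0.0827% called), for *dpy-21*, *set-1* and *set-4* in that order. Comparisons with WT share the same 3 WT libraries and are not independent of each other.

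**Figure D2:**
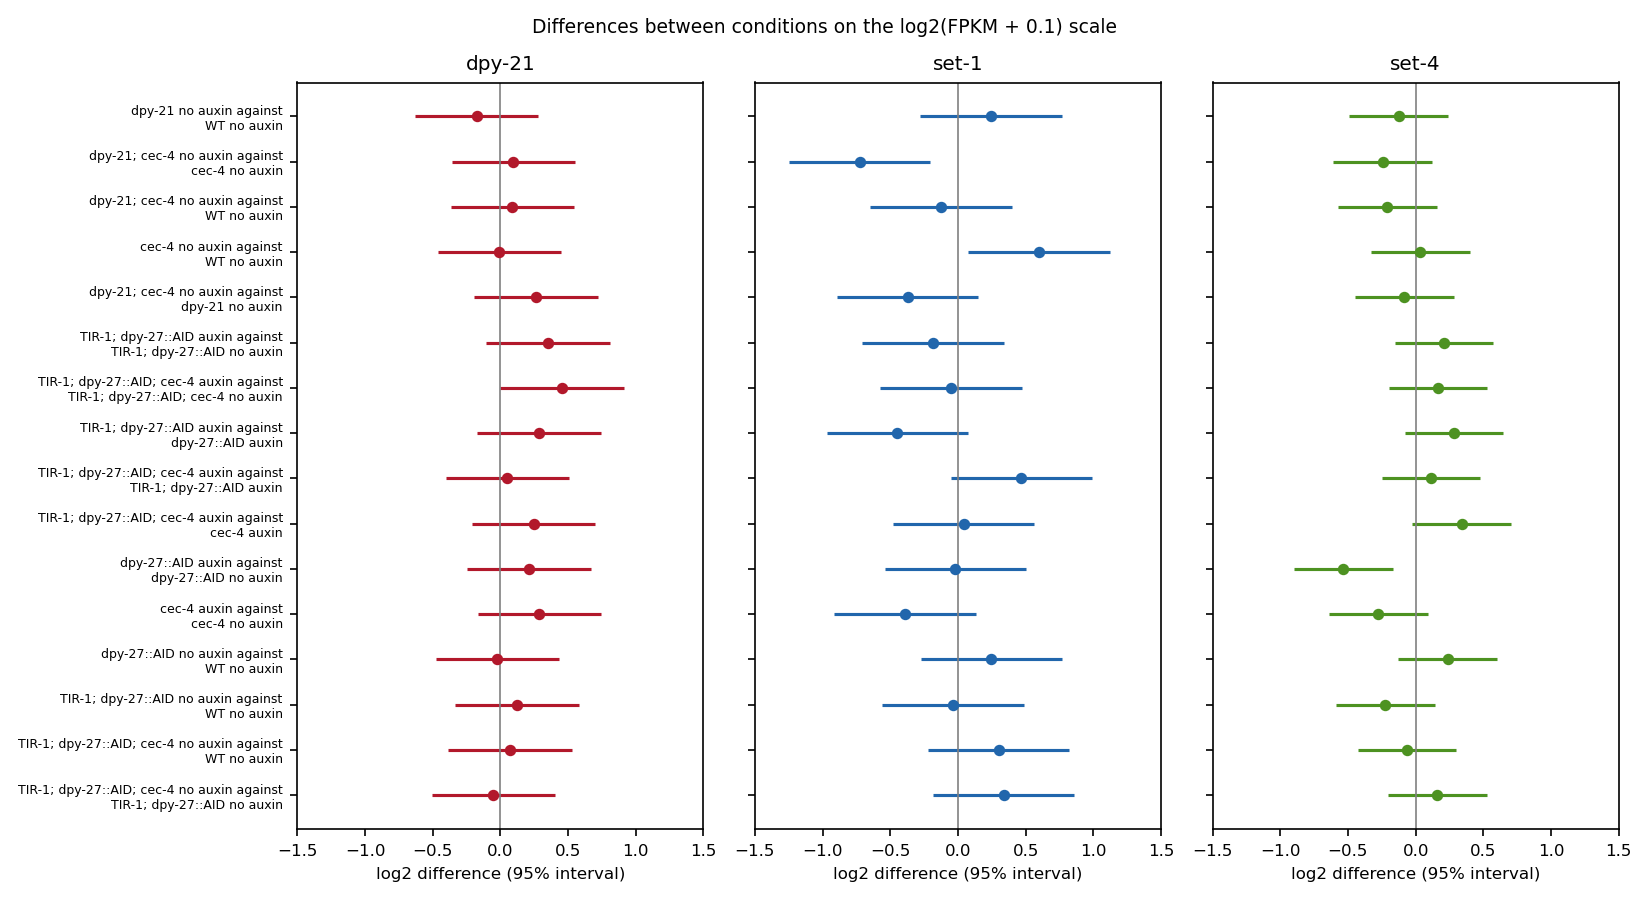
Differences on the log2(FPKM + 0.1) scale (x axes) with 95% intervals (lines) for *dpy-21*, *set-1* and *set-4* in the 16 comparisons (rows). The intervals that leave out 0 are those of *set-1* in dpy-21; cec-4 against cec-4 (-0.73) and in cec-4 against WT (0.60), and of *set-4* in dpy-27::AID on auxin against no auxin (-0.53), and none of these passed the adjusted test.

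Over the 16 comparisons, the differences ran between -0.17 and 0.45 for *dpy-21*, between -0.73 and 0.60 for *set-1* and between -0.53 and 0.34 for *set-4*. The unadjusted p was under 0.05 in 0 of 16 for *dpy-21*, 2 of 16 for *set-1* and 1 of 16 for *set-4*. Of all 13309 genes, between 519 and 2813 had an unadjusted p under 0.05, depending on the comparison. The number was 1873 in dpy-21; cec-4 against cec-4, 2202 in cec-4 against WT and 673 in dpy-27::AID on auxin against no auxin. The smallest adjusted p was 0.237 for *dpy-21*, 0.158 for *set-1* and 0.318 for *set-4*.

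The balance between demethylase and methyltransferase mRNA can be read within a library, where the scaling of the library cancels. The WT libraries, which differed more than 2-fold in the FPKM of *dpy-21* and *set-1*, had nearly the same log2 ratio of *dpy-21* to *set-1*, between -0.31 and -0.26. Their log2 ratio of *dpy-21* to *set-4* was spread from -0.95 to 0.41. Replicate 1, with the largest FPKM sum, was lowest for *dpy-21* and *set-1* and highest for *set-4*.

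The log2 ratio of *dpy-21* to *set-1* was higher on average on auxin in each of the 4 strains, with libraries that overlapped in 2 of them. It differed by 0.54 in TIR-1; dpy-27::AID larvae (0.41 ± 0.50 on auxin, against -0.13 ± 0.54 without auxin, SD, n = 3 each, exact permutation p = 0.20) and by 0.68 in cec-4 larvae (-0.21 ± 0.42 on auxin, against -0.90 ± 0.65 without auxin, SD, n = 3 each, exact permutation p = 0.30), both with overlap. For TIR-1; dpy-27::AID; cec-4 larvae the log2 ratio was -0.0087 ± 0.058 on auxin, against -0.52 ± 0.32 without auxin, with no overlap (difference 0.51). In dpy-27::AID larvae it was -0.33 ± 0.11 on auxin, against -0.56 ± 0.032 without auxin, also with no overlap (difference 0.23). On auxin, it was 0.41 ± 0.50 in TIR-1; dpy-27::AID larvae, against -0.33 ± 0.11 in dpy-27::AID larvae (difference 0.74), which is the only condition mean above 0 for this ratio (SD, n = 3 each). Among the dpy-21 strains, the ratio was -0.07 ± 0.20 in dpy-21; cec-4 larvae, against -0.71 ± 0.25 in dpy-21 larvae (difference 0.64). The dpy-21 larvae lay below WT by 0.42 (-0.42), the dpy-27::AID larvae without auxin by 0.27 (-0.27), and the dpy-21; cec-4 larvae above it by 0.22. For each of the 7 comparisons without overlap, the exact permutation test gave p = 0.10, the smallest possible here. The adjusted p was 0.229 over the 16 comparisons of this ratio, so the test could not pass whatever the size. The share of other gene pairs without overlap was not computed, so the count of 7 does not show that this ratio is unusual.

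The ratio of *dpy-21* to *set-4* did not overlap between conditions in 2 of 16 comparisons. It differed by 0.75 in dpy-27::AID larvae on auxin against no auxin and by 0.29 in TIR-1; dpy-27::AID; cec-4 larvae on auxin against no auxin (exact permutation p = 0.10 each, adjusted p = 0.80). The ratio of *set-1* to *set-4*, between the enzymes of the first and the later methylation steps, did not overlap only in dpy-21; cec-4 against cec-4 larvae, where it differed by -0.48 (exact permutation p = 0.10, adjusted p = 0.711). How often ratios of other gene pairs did not overlap was not computed. The counts of comparisons without overlap are thus descriptions for each of these ratios.

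**Figure D3:**
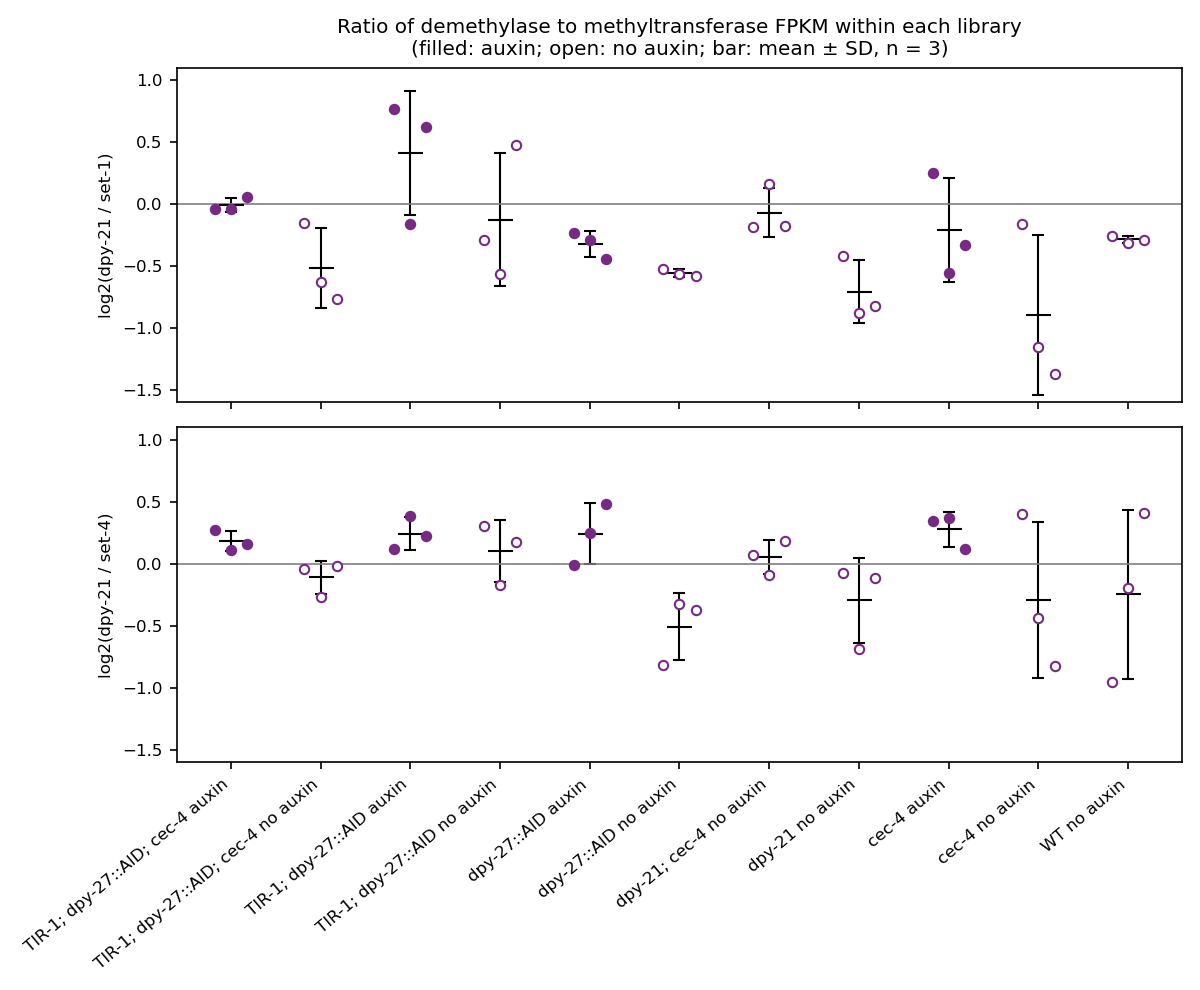
log2 ratio of *dpy-21* to *set-1* FPKM (upper panel) and of *dpy-21* to *set-4* FPKM (lower panel) within each library (y axes) by condition (x axis), with filled circles for auxin, open circles for no auxin and bars for the mean ± SD of 3 libraries. The WT libraries lie together at -0.31 to -0.26 in the upper panel and are spread from -0.95 to 0.41 in the lower one.

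No pair of the 3 genes had a correlation over libraries that passed the test. After removal of the condition means, 33 libraries gave a Pearson r of 0.22 between *dpy-21* and *set-1* (rho 0.03), of -0.19 between *dpy-21* and *set-4* (rho 0.0020) and of -0.33 between *set-1* and *set-4* (rho -0.34). The permutation p of r was 0.562, 0.370 and 0.080, with adjusted values of 0.562, 0.555 and 0.241 over the 3 pairs, and the permutation p of rho was 0.891, 0.993 and 0.089, with adjusted values of 0.993, 0.993 and 0.267. Without the 2 libraries farthest from the median, r was 0.11, -0.07 and -0.26. With equal FPKM sums r was 0.58, 0.41 and 0.23, so the sign of the pairs with *set-4* depended on the scaling.

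The genes most like each member were ranked by Pearson r on log2(FPKM + 0.1) over the 33 libraries, among 9328 genes that passed the limit and had no library at 0. For *dpy-21* they were *unc-44* (r = 0.77), the worm ankyrin gene, *gsa-1* (0.75) and *egl-30* (0.74), which encode G protein alpha subunits, *let-765* (0.73) and C16H3.3 (0.72). For *set-1* they were ZK470.6 (0.69), Y62F5A.9 (0.69), *nas-7* (0.68), an astacin-type protease gene, *idpp-7* (0.68) and T28C12.6 (0.67). For *set-4* the values were lower, with *disl-2* (0.61), *spn-4* (0.60), an RNA-binding protein of the early embryo, *npp-3* (0.60), a nuclear pore protein, *scc-3* (0.58), a cohesin subunit, and *ilcr-2* (0.57). Over the same libraries, the members themselves had r = -0.03 for *dpy-21* with *set-1*, -0.04 for *set-1* with *set-4* and -0.09 for *dpy-21* with *set-4*. These are descriptions, since the libraries share conditions.

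Other genes of the same machinery were counted over the 16 comparisons, in which 0% to 6.4% of all genes were called. Between 519 and 2813 of all 13309 genes had an unadjusted p under 0.05 in a comparison. Of the 9 other subunits of the dosage compensation complex, all tested, 1 passed in 1 of the 16 comparisons. *sdc-2*, the X-linked gene whose product brings the complex to the X, rose by 1.29 in TIR-1; dpy-27::AID; cec-4 larvae on auxin against no auxin (interval 0.67 to 1.92, adjusted p = 0.013), where 6.4% of all genes were called. In the same comparison all 9 subunits pointed up with a median of 0.15, where the median of all genes was -0.05. That was the highest count of the 16 comparisons. The lowest was 1 of 9, in dpy-27::AID larvae on auxin against no auxin (median -0.15). Of the 10 other JmjC demethylase genes, 6 could be tested and 0 passed in limma in any of the 16 comparisons (12 of 96 tests had an unadjusted p under 0.05). *rbr-2*, which acts on H3K4, and *jmjd-2*, which acts on H3K9 and H3K36, averaged 27.2 and 15.7 FPKM over all libraries. The genes *jmjd-1.1*, *jmjd-1.2*, *jmjd-3.2* and *jmjd-3.3* were below the limit, with means between 0.0073 and 0.479 FPKM. Of 13 other SET-domain methyltransferase genes, including *met-2*, *set-25* and *mes-2*, 0 passed in limma (14 of 208 tests had an unadjusted p under 0.05). For 4 genes of H4 acetylation and deacetylation (*mys-1*, *mys-2*, *mys-4* and *sir-2.1*), 0 passed as well (4 of 64 tests).

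Summed levels of markers of developmental timing and of the germ line are given by condition. Some molting genes passed the test between conditions, and 0 germline genes did. In whole larvae, fewer cells of a type and less RNA per cell cannot be told apart. Molting genes, which are transcribed in a pulse once per larval stage, were all 11 in the table, 10 could be tested, and *mlt-11* was listed at 0 in every library. Their summed level in TIR-1; dpy-27::AID; cec-4 larvae was 366 to 655 FPKM on auxin, against 1467 to 1889 FPKM without auxin, and 3 of 10 fell (*noah-2*, *mlt-8* and *qua-1*), where 6.4% of all genes were called. For TIR-1; dpy-27::AID larvae the sum was 1187 to 2220 FPKM on auxin, against 368 to 1203 FPKM without auxin, and 1 of 10 rose (*noah-1*, by 2.33, adjusted p = 0.039), where 0.413% of all genes were called. Beside these sums, the *dpy-21* difference was 0.45 in TIR-1; dpy-27::AID; cec-4 larvae and 0.35 in TIR-1; dpy-27::AID larvae, and neither passed the test. Between strains on auxin, the molting sum of TIR-1; dpy-27::AID; cec-4 larvae was again lower, 366 to 655 FPKM, against 806 to 1771 FPKM in cec-4 larvae, while the sum of 1187 to 2220 FPKM in TIR-1; dpy-27::AID larvae overlapped that of 1377 to 2062 FPKM in dpy-27::AID larvae. The 2 TIR-1 strains on auxin also differed from each other. With the cec-4 mutation 4 of 10 molting genes were lower (*noah-1*, *noah-2*, *ptr-4* and *fbn-1*), where 2.28% of all genes were called. The median of the 10 was -1.81 and 0 pointed up, beside a *dpy-21* difference of 0.05. In all, 13 of 160 tests of molting genes passed in the 16 comparisons, where 0% to 6.4% of all genes were called. The part of molting stage in these *dpy-21* values was not tested.

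Beside the *set-1* difference between dpy-21; cec-4 and cec-4 larvae, the molting sum was 850 to 1190 FPKM in dpy-21; cec-4 larvae, against 769 to 1748 FPKM in cec-4 larvae, and the sum of 11 S-phase genes was 417 to 489 FPKM, against 402 to 569 FPKM. Both ranges overlapped and 0 genes of either list passed there in limma. The germline sum (11 genes, of which 10 could be tested and *pgl-1* had a mean of 0.077 FPKM) was 196 to 205 FPKM in dpy-21; cec-4 larvae, against 130 to 217 FPKM in cec-4 larvae. Beside the *set-4* difference in dpy-27::AID larvae, the germline sum was 145 to 307 FPKM on auxin, against 160 to 328 FPKM without auxin, and the molting sum was 1377 to 2062 FPKM on auxin, against 906 to 2501 FPKM without auxin. In TIR-1; dpy-27::AID; cec-4 larvae the germline sum was 120 to 196 FPKM on auxin, against 239 to 291 FPKM without auxin, with no overlap and 0 of 10 genes past the test. In that comparison libraries did not overlap for 30.7% of all single genes. In limma, 0 germline and 0 S-phase genes passed in the 16 comparisons, with an unadjusted p under 0.05 in 15 of 160 and 27 of 176 tests. Among all genes, 519 to 2813 of 13309 had such a p in a comparison. Beside the values against WT, the molting sum was 1092 to 1508 FPKM in dpy-21 larvae and 769 to 1748 FPKM in cec-4 larvae. In WT it was 641 to 919 FPKM, so that dpy-21 larvae did not overlap WT and cec-4 larvae did. In dpy-21 larvae against WT, 1 of 10 molting genes passed in limma, where 3.66% of all genes were called. That gene, *ptr-4*, rose by 1.70 (adjusted p = 0.013). All 10 pointed up, with a median of 1.365, where the median of all genes was 0.088. This was not particular to dpy-21 larvae. Without auxin, all 10 also pointed up against WT in cec-4 (median 1.09), dpy-21; cec-4 (0.94), dpy-27::AID (1.77) and TIR-1; dpy-27::AID; cec-4 larvae (1.79). In TIR-1; dpy-27::AID larvae 5 of 10 did (0.03). *ptr-4* is X-linked, and the part of lost dosage compensation in its rise was not tested. The WT germline sum was 74.6 to 284 FPKM. The part of these lists in the members' values was not tested.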

How the data were processed

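Poly(A) RNA of 33 libraries was sequenced by the authors and quantified on WBcel235 transcripts, and the submitters' processing notes name cutadapt 2.3, FastQC 0.11.8, Salmon 1.9.0 and DESeq2 1.42.0. The authors deposited 1 table of FPKM values, and how these were computed from the Salmon output is not given in the sources used here. The values were already close to median-of-ratios scaling. Applying it left the median log2 difference of all genes in dpy-21 against WT at 0.08761, where the values as deposited gave 0.08762. Counts and reads were not analysed.

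Groups came from the sample labels. Values were taken as log2(FPKM + 0.1), so that fold changes of low genes are understated, and genes with a mean of at least 1 FPKM were fitted in limma 3.58.1 (R 4.3.3) with 11 condition means, a trend in the prior variance and no replicate block. The Benjamini-Hochberg adjustment ran over 13309 genes in each comparison, with a threshold of 0.05. Ratios, neighbouring conditions and correlations were tested in Python 3.11.15 with scipy 1.17.1, by exact permutation over libraries or 100000 permutations within conditions. Nothing in the labels says that replicates came from separate cultures, so p-values measure the spread between these samples.

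The members and gene lists were chosen with earlier results of these data known. Named genes are the members, the listed genes that passed the test or were named for their role, and the 5 genes with the highest r to each member. The depth is not given, and a rough estimate from the steps of low FPKM values was 12.4 to 23.7 M fragments per library, which puts counting error at 2.69% to 5.13% for the lowest library of each member. It was not sharp in every library. On simulated data for dpy-21 against WT (13309 genes), limma called 22 of 100 genes given a log2 change of 1 and 57 of 100 given a log2 change of 2, with the spread of each gene as measured, which for the median gene was larger than for the members, whose own intervals are given. Replicate numbers paired the samples in 0 of 16 comparisons. Alternatives tried were a pseudocount of 1 or 0.01, the table without a filter, a mean of at least 5 FPKM, median-of-ratios scaling, equal FPKM sums, a replicate block, only the conditions compared and leaving out each library. WT replicate 3 as the only WT library was an alternative chosen with the data in view. No sequences were printed.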

Additional observations from a re-analysis of the deposited data

How the results depend on the processing

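Pseudocounts of 1 and 0.01 changed neither the direction nor the call of any member value. Median-of-ratios scaling did not either, but it left the values almost as deposited. No filter, a mean of at least 5 FPKM and only the conditions compared cannot move a member's difference, and they changed no call. A replicate block cannot move a difference either, since every condition holds the same replicate numbers. The lowest adjusted p in limma with that block was 0.145. Equal FPKM sums turned *dpy-21* in dpy-21 against WT to 0.14, *set-4* in TIR-1; dpy-27::AID without auxin against WT to 0.15, and the correlations of *set-4* with *dpy-21* to 0.41 and with *set-1* to 0.23. WT replicate 3 alone, with the lone library assumed to vary like the others, turned *set-1* in dpy-21 against WT to -0.35, and moved *set-1* to 0.0089 in cec-4 against WT and to -0.38 in the interaction of dpy-21 and cec-4, and *dpy-21* in dpy-21 against WT to -0.76, with no call. Over left-out libraries, this *set-1* value ran from -0.027 to 0.54, *dpy-21* in dpy-21 against WT from -0.43 to 0.12, and *dpy-21* in dpy-21; cec-4 against cec-4 from -0.072 to 0.35. *set-1* ran from 0.33 to 0.89 in cec-4 against WT and from -1.27 to -0.70 in the interaction of dpy-21 and cec-4, and in each the number of members called ran from 0 to 1. These were the only 2 of 1032 alternative values past the threshold, both without WT replicate 3. Of the 38 other member values, some of them printed above, 19 changed sign on leaving out a library, 9 with equal FPKM sums and 6 with WT replicate 3 alone. The causes were not tested. FPKM without counts limits what depth can be assigned to a value.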
